A study of Mus musculus with 4 samples.

Results

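The Elavl (Hu) genes encode RNA-binding proteins that recognise AU-rich and U-rich elements of mRNAs. The family was described here by the MOV10 peaks of its 4 mouse genes, Elavl1, Elavl2, Elavl3 and Elavl4, chosen as the peaks whose midpoint lay in the RefSeq span of one of these genes. Of 12236 listed peaks 78 met this rule, all 78 of them in Elavl1 and 0 in each of Elavl2, Elavl3 and Elavl4. Since the genes were picked by these same peaks, the number and strength of their peaks are given as a description, with no test.

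RNA bound by MOV10, an RNA helicase found in complexes with Argonaute proteins, was measured by eCLIP, in which proteins are crosslinked to RNA, immunoprecipitated, and the RNA fragments sequenced beside an input. The groups were 2 libraries of MOV10 immunoprecipitate and 2 of input, all from N2A, a mouse neuroblastoma cell line grown in serum-containing medium, and the labels name no genetic change or drug. The labels do not say whether replicates came from separate cultures. Per the series title, the study concerns the unfolding activity of MOV10 and mRNAs targeted by AGO2. The values came from 1 deposited list for the whole series, whose name marks a filter on the irreproducible discovery rate between replicates, with 2 values per peak, both the authors'. They were taken as the log2 of the fold enrichment over input, called log2 enrichment below, and the −log10 p. No value per library, SD or sequencing depth was thus known for any gene, and the identity of the cells could not be checked against markers, since a peak list holds no expression levels.

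Hu proteins carry RNA recognition motifs, bind mainly introns and 3′ untranslated regions, and are known to stabilise many of their target mRNAs and promote their translation. Elavl1 encodes HuR, the member made in nearly all tissues, which shuttles between nucleus and cytoplasm. Elavl2, Elavl3 and Elavl4 encode HuB, HuC and HuD, which are mainly neuronal and take part in neuronal differentiation. HuR mRNA has a long 3′ untranslated region, is made in forms that differ in their polyadenylation site, and is itself regulated by HuR and by microRNAs.

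MOV10 peaks were listed for 1 of the 4 family genes. Over the whole annotation, 1686 of 21900 coding genes (7.70%) had a peak whose midpoint lay in their span alone. Elavl1 (chr8:4284781-4325140, GRCm38, minus strand, a span of 40.4 kb) held 78 peaks, all 78 on its own strand. Elavl2 (chr4:91211533-91400108, 188.6 kb), Elavl3 (chr9:22015005-22052146, 37.1 kb) and Elavl4 (chr4:110203737-110351939, 148.2 kb), also on the minus strand, held 0 each. The family's peaks were therefore those of the ubiquitous member, with 0 in the neuronal members.

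For the neuronal Hu genes, the nearest listed peaks lay in other genes. A peak was counted in only 7.70% of all coding genes, so having none does not set these genes apart. The distances below depend on which neighbouring genes had peaks, and they were not compared with those of other genes without peaks. They do not bear on binding to the neuronal Hu mRNAs themselves. The nearest peak outside Elavl3 lay 66.3 kb away in Plppr2 with a log2 enrichment of 3.30. For Elavl4 it lay 746.7 kb away in Rnf11 (log2 enrichment 3.06), and for Elavl2 2492.4 kb away in Klhl9 (3.12). The lowest log2 enrichment of the whole list was 3.0009, so weaker binding was not represented. The abundance of these mRNAs in the input was not known, so a transcript that was scarce and one that was not bound cannot be told apart here.

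The peaks of Elavl1 lay in a block near the 3′ end of the gene and covered 59.6% of the bases of that block. The midpoint nearest to the annotated 3′ end lay 622.5 nt from it and the farthest 4752 nt, with a median of 2626 nt. From the outer edge of the first peak to that of the last, the block extended over 4158 nt, or 10.3% of the span. The 598 bases at the 3′ end and the 35.6 kb upstream of the block held no peak. The nearest peak outside the span lay 26.8 kb beyond the 3′ end in Ctxn1 and was near the floor of the list, with a log2 enrichment of 3.03. Whether each base is coding, untranslated or intronic was not determined, since no exon annotation was used.

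Pooled over other genes, peaks lay nearer to the gene's end than those of Elavl1. In the last 2 kb of the gene lay 26 of the 78 Elavl1 peaks (33.3%), against 59.0% of the 9899 peaks of the 1419 other coding genes of 15 kb or more. The median distance was 2626 nt in Elavl1 and 1610 nt in those genes. Within 5 kb lay all 78 Elavl1 peaks and 86.3% of the others. Among genes with many peaks Elavl1 did not stand apart in position. Of the 121 other coding genes with at least 20 peaks, 46 had a larger median distance than Elavl1, and of the 122 such genes with Elavl1 included, 60 had all their peaks within 5 kb. Of the other genes' peaks, 18.4% were nearer to the end than the nearest of Elavl1. Peaks of 1 transcript are not independent, so these positions were compared as values only.

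Enrichment was high over most of the block. The log2 enrichment of the 78 Elavl1 peaks had a median of 5.20 (interquartile range 4.68 to 5.67), a 36.7-fold linear enrichment. The 11110 peaks of the other coding genes had a median of 3.71 (interquartile range 3.34 to 4.19), or 13.1-fold. Of the Elavl1 peaks, 73 exceeded the median of the others and 65 exceeded their upper quartile. Elavl1 held 0.637% of all listed peaks, 49 of the 725 with a log2 enrichment of at least 5 (6.76%), and 10 of the 55 with at least 6 (18.2%). Its share of the listed peaks thus grew towards the strong end. These counts take short, mostly touching peaks of 1 transcript as separate. The median length was 22 nt in Elavl1 against 74 nt in the other coding genes, so the shares depend on how finely peaks were divided.

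Among the 1686 coding genes with peaks, Elavl1 came first by its strongest peak and 3rd by the number of peaks. The next gene by strongest peak reached 6.62. By median log2 enrichment it came second of the 122 genes with at least 20 peaks. The median coding gene with peaks held 3, and its strongest peak had a log2 enrichment of 3.85. The order by number depended on how finely the peaks were divided. Elavl1 peaks had a median length of 22 nt (range 4 to 121), against 74 nt in the other coding genes, and 54 of the 77 pairs of neighbouring Elavl1 peaks touched with no base between them. Merging touching peaks left 24 intervals, by which Elavl1 came 15th, and by the 2480 bases under its peaks it came 18th.

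The strongest peak of Elavl1, and of the whole list, was chr8:4285993-4286086, 1258.5 nt from the 3′ end. It had a log2 enrichment of 6.93, a 122-fold linear value, and a −log10 p of 165. The peak that touches it upstream in the transcript, chr8:4286087-4286113, was second in the whole list with a log2 enrichment of 6.68 and a −log10 p of 154. Both lay at the downstream edge of the longest stretch of peaks described below.

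Next in Elavl1 were 3 short peaks spread over more than 1000 bases of the block. The peak chr8:4286196-4286222 had a log2 enrichment of 6.34 at 1428 nt from the end, ninth in the whole list. The peak chr8:4286778-4286792 had 6.23 at 2004 nt, and chr8:4287373-4287394 had 6.21 at 2602.5 nt. High values were therefore not limited to the leading position. Of the 100 strongest peaks of the list 17 were in Elavl1, with touching peaks counted singly.

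**Figure D1:**
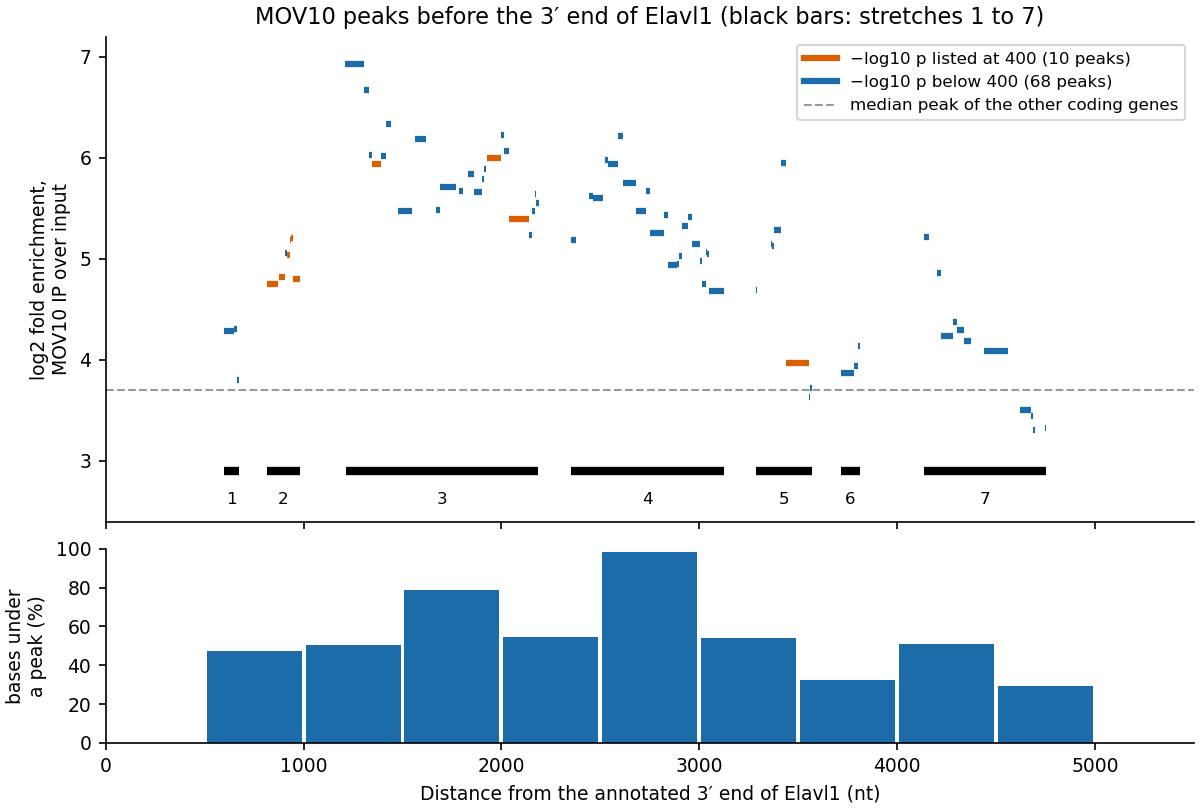
Upper panel: each horizontal mark is 1 of the 78 Elavl1 peaks, drawn to its length at its distance from the annotated 3′ end (x axis, nt) and its log2 enrichment (y axis), with orange marks for the 10 peaks listed at a −log10 p of 400, a dashed line at the median of the other coding genes (3.71) and black bars for the 7 stretches. Lower panel: percent of bases under a peak in each 500-nt window; the highest marks lie between 1000 and 1500 nt and the fullest window, 98.2%, is that from 2500 to 3000 nt.

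Joining peaks with gaps of at most 100 nt gave 7 stretches along the Elavl1 transcript, a division made after the positions had been seen. Numbered from the 3′ end, the first (chr8:4285379-4285454) held 3 peaks with a log2 enrichment of 3.80 to 4.31. The second (chr8:4285598-4285761) held 7 peaks of 4.75 to 5.21, and 6 of these 7 were listed at the highest −log10 p of 400. The third (chr8:4285993-4286968) was the longest, with 23 peaks of 5.24 to 6.93 and a length-weighted mean of 5.93. All of its peaks exceeded the strongest peak of the second stretch.

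Farther upstream, enrichment was lower, though unevenly so. The fourth stretch (chr8:4287134-4287904) held 22 peaks of 4.68 to 6.21 with a length-weighted mean of 5.36, and it contained the longest run without a gap, 16 touching peaks over 507 nt. The fifth (chr8:4288066-4288350) held 8 peaks of 3.64 to 5.95 with a length-weighted mean of 4.51, and the sixth (chr8:4288500-4288592) 3 peaks of 3.87 to 4.14 with a mean of 3.91. The seventh (chr8:4288919-4289536), the farthest from the 3′ end, held 12 peaks of 3.31 to 5.21 with a length-weighted mean of 4.12. The length-weighted means thus stepped up from stretch 2 to stretch 3 and were lower in each stretch upstream of it, with stretch 7 above stretch 6. Over the 78 peaks, Spearman's rho between distance from the 3′ end and log2 enrichment was −0.53, a description of neighbouring and mostly touching peaks of 1 transcript.

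Neighbouring peaks mostly had like values. Across the 54 touching pairs the median difference in log2 enrichment was 0.17, and 6 pairs differed by more than 0.5. The steepest step, 1.98, lay in the fifth stretch. There the 25-base peak chr8:4288196-4288220 had a log2 enrichment of 5.95 and a −log10 p of 68.3, and the adjoining chr8:4288221-4288333 had 3.97 and a −log10 p of 400. The weaker of the pair by enrichment was therefore the one at the ceiling of the −log10 p.

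The extremes of the block differed widely. The nearest peak to the 3′ end, chr8:4285379-4285428, had a log2 enrichment of 4.29 and a −log10 p of 71.4. The farthest, chr8:4289530-4289536, had 3.33 and a −log10 p of 21.4, the lowest of the gene. The weakest by enrichment, chr8:4289468-4289479, had 3.31, a 9.90-fold linear value. Even the lowest −log10 p of Elavl1 exceeded the median of the other coding genes' peaks, 10.2.

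Set beside peaks of other genes at the same distance, the difference was largest between 1000 and 1500 nt. There the 6 Elavl1 peaks had a median log2 enrichment of 6.19, against 3.71 for 1468 peaks of 641 other coding genes. Between 2500 and 3000 nt the medians were 5.43 for 14 Elavl1 peaks and 3.73 for 598 others. Between 3500 and 4000 nt they were 3.87 for 5 Elavl1 peaks and 3.63 for 325 others. Between 4000 and 4500 nt they were 4.30 for 8 Elavl1 peaks and 3.71 for 268 others. Between 4500 and 5000 nt the order turned, with 3.39 for 4 Elavl1 peaks and 3.79 for 187 others. The other genes' medians stayed between 3.63 and 3.79 over all 9 windows. These medians pool many genes and do not show how enrichment runs along any single one of them.

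**Figure D2:**
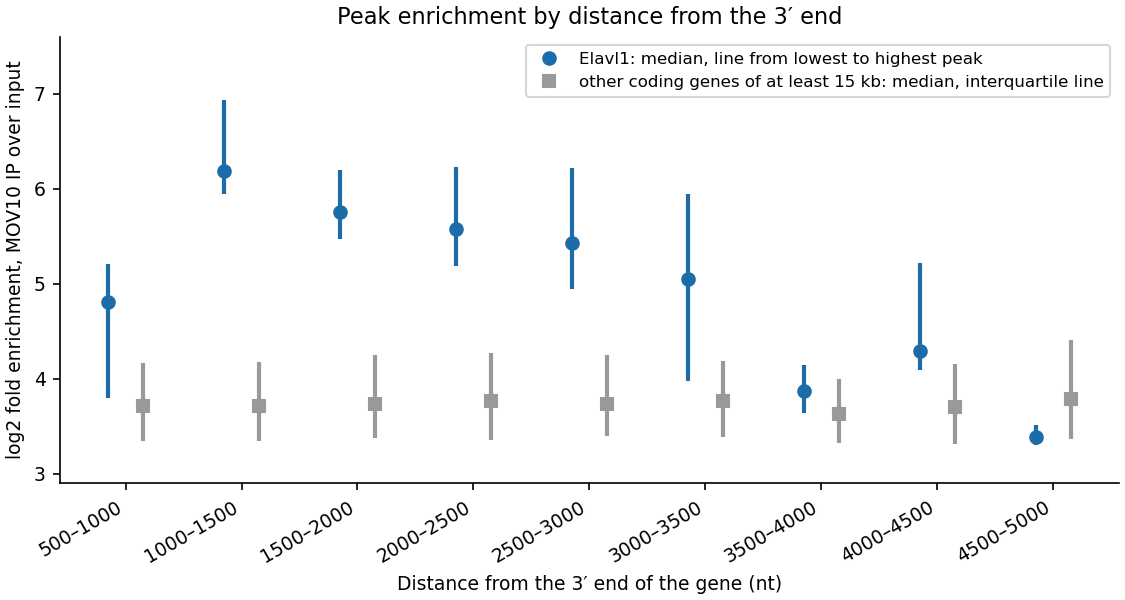
Log2 enrichment (y axis) in windows of 500 nt from the 3′ end (x axis). Blue points are Elavl1 medians with lines from its lowest to its highest peak, and grey squares are medians of the other coding genes of 15 kb or more with their interquartile range; Elavl1 is highest, at 6.19, from 1000 to 1500 nt and is below the other genes, 3.39 against 3.79, from 4500 to 5000 nt.

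The −log10 p of Elavl1 peaks was high as well, with a median of 60.1 against 10.2 in the other coding genes. In the whole list 84 peaks stood at 400, the highest value given, and 10 of them were in Elavl1. Below 400 the highest value of the whole list was the 165 of the leading Elavl1 peak, so no listed peak lay between the 2 values. The 10 Elavl1 peaks at 400 had log2 enrichments of 3.97 or more with a median of 5.12, and the other 68 had a median of 5.23. Their median length was 41.5 nt, against 21 nt in the other 68. A −log10 p of 400 thus did not mark the most enriched peaks of Elavl1. Over its 78 peaks, Spearman's rho between both deposited values was 0.46, and 0.48 over all 12236 listed peaks, which share libraries and depth.

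**Figure D3:**
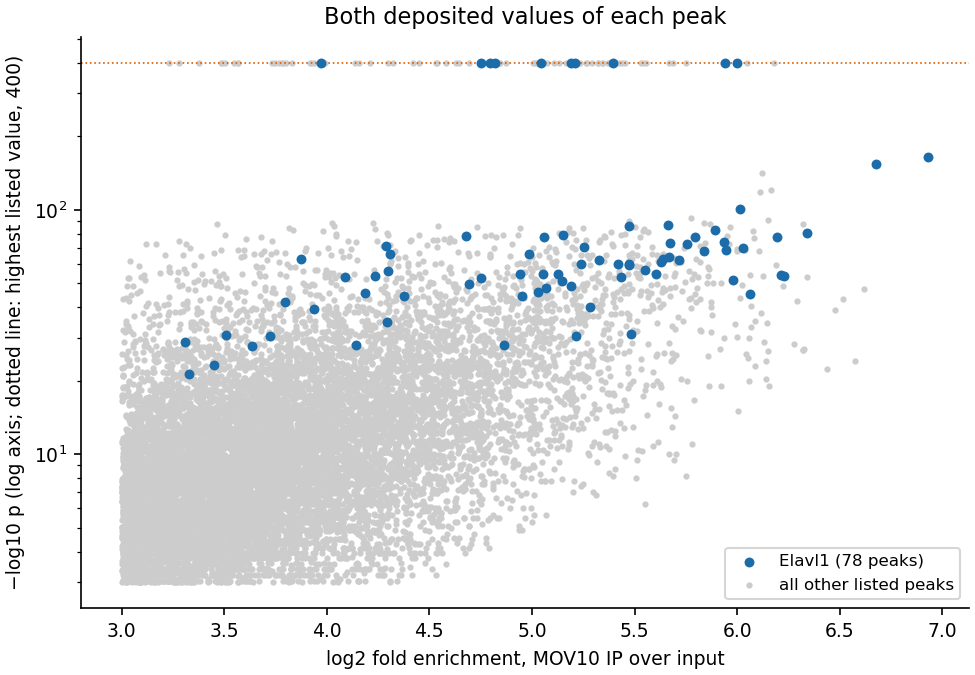
Log2 enrichment (x axis) and −log10 p (y axis, log scale) of each listed peak, with the 78 Elavl1 peaks in blue and all others in grey. The 10 Elavl1 peaks on the dotted line are listed at 400, and the leading Elavl1 peak, at 6.93 and 165, stands at the right edge as the highest value below that line.

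Genes with a like profile were sought among the 121 other coding genes with at least 20 peaks. Likeness was the distance over 4 scaled measures, the number of peaks, the strongest and the median log2 enrichment, and the median distance to the 3′ end. The nearest was Tead1, a Hippo pathway transcription factor, at a distance of 1.32. Cbx5, which encodes the heterochromatin protein HP1α, followed at 1.35 and the Notch pathway ubiquitin ligase gene Mib1 at 1.63. Then came Nova2, a neuronal splicing regulator, at 1.85 and Ttyh3, of the tweety membrane proteins, at 2.16. The median distance of the 121 genes was 5.21.

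These 5 genes differed from Elavl1 in how widely their peaks were laid out. Elavl1 peaks spanned 4129.5 nt between outermost midpoints, against 5411 nt in Nova2, 14538.5 nt in Tead1, 21413 nt in Cbx5, 28262 nt in Ttyh3 and 41711.5 nt in Mib1. The median log2 enrichment was 5.20 in Elavl1, against 5.24 in Cbx5, 4.96 in Nova2, 4.91 in Mib1, 4.78 in Tead1 and 4.59 in Ttyh3. Median log2 enrichment and median distance to the 3′ end were among the measures used to choose these genes, so likeness in them is built in. Peaks at a −log10 p of 400 numbered 10 in Elavl1, 23 in Cbx5, 20 in Ttyh3 and 0 in Tead1, Mib1 and Nova2. The distance between outermost midpoints can be set by a few distant peaks. The narrowest window with 90% of a gene's peaks, chosen with the positions known, was 3655 nt in Elavl1, against 3781.5 nt in Mib1, 4359.5 nt in Nova2, 6231 nt in Tead1, 6416 nt in Cbx5 and 14881 nt in Ttyh3. By that measure Elavl1 and Mib1 were close. In the last 3 kb of the gene lay 50 of the 78 peaks of Elavl1 and 72 of the 101 of Ttyh3. Spearman's rho between distance from the 3′ end and log2 enrichment was −0.53 in Elavl1, against −0.67 in Ttyh3, −0.41 in Cbx5, −0.32 in Nova2, −0.31 in Mib1 and 0.098 in Tead1. A negative rho was therefore seen in 4 of the 5 genes as well. It does not mean a steady fall along each transcript. In Cbx5 the highest value, 6.48, lay 6677 nt from the end. The median distance from that end was 2626 nt in Elavl1, and it was larger in 4 of the 5, from 3064 nt in Nova2 to 4065.75 nt in Tead1, with 2102 nt in Ttyh3.

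**Figure D4:**
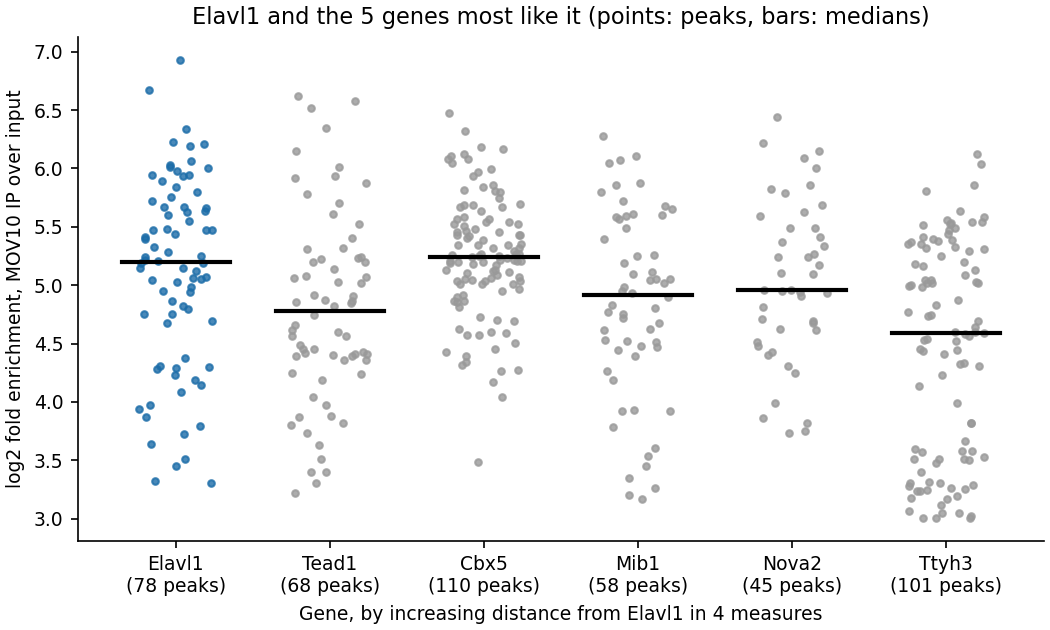
Log2 enrichment (y axis) of every peak of Elavl1 (blue) and of the 5 coding genes most like it (grey), ordered by increasing distance from Elavl1 (x axis); black bars are medians and points are spread sideways for legibility. The Elavl1 median of 5.20 is close to that of Cbx5, 5.24, and the highest single point, 6.93, is in Elavl1. The genes were chosen partly by their median and strongest log2 enrichment.

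HuR shares its targets with other proteins that bind AU-rich and related elements, some of which promote mRNA decay. Of 32 genes of such proteins, 11 (34.4%) had a MOV10 peak, beside the 7.70% of all coding genes, and the median strongest log2 enrichment of the 11 was 4.10, beside 3.85 over all coding genes with peaks. Rc3h2, which encodes Roquin-2, an RNA-binding ubiquitin ligase that promotes mRNA decay, had 45 peaks up to 5.61. Its paralogue Rc3h1, for Roquin-1, had 20 up to 4.34. Celf1, for a protein that binds GU-rich elements, had 39 peaks up to 4.76, and the Pumilio repressor gene Pum2 had 8 up to 4.63. Both Musashi genes, for translational regulators of neural progenitors, had peaks, Msi2 with 15 up to 4.34 and Msi1 with 1 at 3.97. Hnrnpdl, a relative of the AU-rich element protein AUF1, had 2 up to 4.10, and Hnrnpc 3 up to 3.29.

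No peak was listed for Zfp36, Zfp36l1 or Zfp36l2, which encode the tristetraprolin family of decay-promoting proteins, for Hnrnpd, which encodes AUF1, or for Khsrp, Tia1 and Tial1. Of the 137 peaks of the list, 126 (92.0%) sat in the last 5 kb of their genes. In coding genes of 15 kb or more other than Elavl1, 86.3% of peaks did. This list and those below were written from general knowledge, but with earlier results of these data known. The abundance of each transcript in the input was not known, so the shares are given as values only.

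Of 23 genes of HuR partners and regulators, 7 (30.4%) had a peak, beside the 7.70% of all coding genes. The median strongest log2 enrichment of the 7 was 3.93, beside 3.85 over all coding genes with peaks. Set and Anp32a, which encode acidic nuclear ligands of HuR, had 6 peaks up to 4.51 and 4 up to 3.94. Tnpo1, a nuclear import receptor, had 10 up to 3.93. The kinase gene Mapkapk2 had 2 up to 4.31, and Mapk14, for the p38 kinase upstream of it, had 1 at 3.39. Prkca, for a protein kinase C isoform, had 1 at 3.25, and Mdm2, for the ubiquitin ligase of p53, had 1 at 3.07. None of the 25 peaks of these 7 genes was over 5 kb from the 3′ end, where 86.3% of peaks in the longer coding genes also lay within 5 kb.

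Of 44 genes whose mRNAs are known HuR targets, 6 (13.6%) had a peak, beside the 7.70% of all coding genes. The median strongest log2 enrichment of the 6 was 3.97, beside 3.85 over all coding genes with peaks. Slc7a1, for the arginine transporter CAT-1, led with 19 peaks up to 5.68. Its mRNA is known from human liver cancer cells as one on which HuR relieves microRNA repression. Cdkn1a, for the cell cycle inhibitor p21, had 6 up to 4.80, and the small GTPase gene Cdc42 had 17 up to 4.13. Ccnd1, for cyclin D1, had 14 up to 3.80, the Ras regulator gene Nf1 had 4 up to 3.80 and the apoptosis inhibitor gene Xiap had 3 up to 3.74. The 63 peaks all sat in the last 5 kb of their genes, beside 86.3% of peaks in the longer coding genes. Each gene's strongest value was below the Elavl1 median of 5.20 except that of Slc7a1.

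Of 28 genes linked to the neuronal Hu proteins as targets, 9 (32.1%) had a peak, with a median strongest log2 enrichment of 3.83, beside 3.85 over all coding genes with peaks. Nova2 had 45 peaks up to 6.44, and its paralogue Nova1, also a splicing regulator, had 2 up to 3.28. Mapt, for the microtubule protein tau, had 20 up to 5.33 and the synaptic vesicle gene Syn1 had 6 up to 4.74. The chromatin organiser gene Satb1 had 8 up to 3.83 and the postsynaptic scaffold gene Dlg4 had 7 up to 3.66. Gap43, for a growth cone protein and an often studied target of HuD, had no listed peak. Most of the 28 genes, like Elavl2, Elavl3 and Elavl4, thus held no counted peak. A peak was counted in 32.1% of these targets and in 7.70% of all coding genes. The 3 Hu genes with 0 peaks are too few to be set apart from either.

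**Figure D5:**
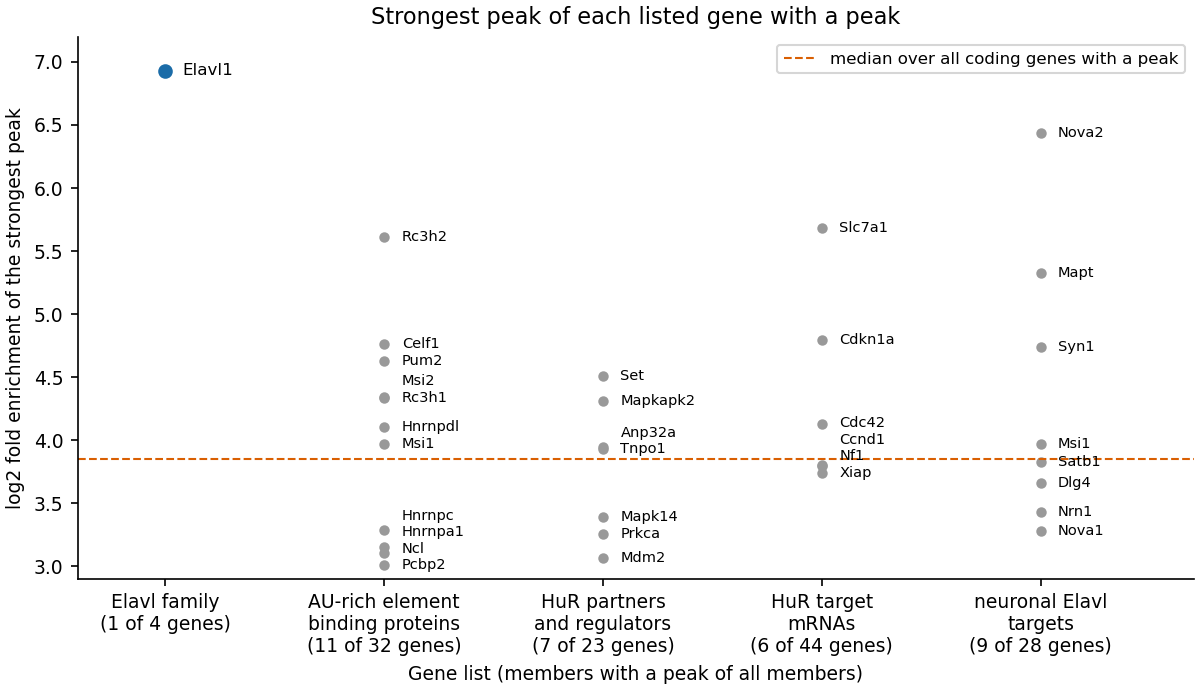
Log2 enrichment of the strongest peak (y axis) of each gene with a peak in the Elavl family (1 of 4 genes, blue) and in 4 gene lists (x axis, grey; members with a peak of all members), with a dashed line at the median over all coding genes with peaks, 3.85; 1 neuronal target is not drawn. Elavl1, at 6.93, is above every listed gene, of which Nova2 reaches 6.44.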

How the data were processed

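The authors' deposited list had no header and gave a position, a strand and 2 values for each peak. They were read as −log10 p and log2 fold enrichment by the authors, from their ranges and the column order of published eCLIP peak files. A wrong reading would change the statements on strength but not on position. Per the submitters' processing notes, the builds were mm10 and GRCm38.p6. For the aligner, caller, thresholds and combination of replicates, nothing is given in the sources used here.

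Starts were counted from 1. Genes were RefSeq GRCm38.p6 spans without exons. Strand came from RefSeq's promoter table, and 8762 of 8775 peaks (99.9%) in 1345 coding genes with an entry lay on their gene's strand. Peaks whose midpoint lay in several spans were left out of gene counts. No genome sequence was used, so peak sequences are not shown.

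Named were the 4 family genes, up to 8 members of each list with the strongest peaks, the 5 genes most like Elavl1, and the 5 strongest, the nearest, the farthest and the weakest Elavl1 peaks. The values of 1 neuronal target gene are not reported here. Members and lists were chosen with earlier results of these data known. Genes without a peak, the steepest step and the stretches were picked after their values were seen. Peak assignment was tested on simulated peaks placed inside known genes. Peaks in several spans were counted for each gene there, so leaving them out was not tested. Python 3.11.15, pandas 2.3.3 and scipy 1.17.1 were used.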

Additional observations from a re-analysis of the deposited data

How the results depend on the processing

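No paired analysis was possible because the values form 1 list for the whole series, with none per replicate, and for the same reason no replicate could be left out. Of 71 alternatives, 62 left counts and ranks within 1.5 times, and log2 and distance values within 1 SD over the Elavl1 peaks. In all those run, Elavl1 stayed first by its strongest peak and Elavl2, Elavl3 and Elavl4 stayed at 0. Many of these outcomes were fixed in advance. Merging or filtering cannot add a peak to a gene with 0. A cut on −log10 p at 5 removes no Elavl1 peak, since its lowest value was 21.4. A cut on log2 enrichment at 4 keeps its strongest peak. The tally of 62 is therefore not a measure of robustness. With touching peaks merged, Elavl1 had 24 intervals in place of 78 and came 15th in place of 3rd by their number, and by covered bases it came 18th. Using only peaks at or above a log2 enrichment of 4, the members with a peak were 6 of the AU-rich element list in place of 11, 2 of the HuR partners in place of 7, 3 of the HuR targets in place of 6 and 3 of the neuronal targets in place of 9. The median strongest peak over all coding genes with peaks, 3.85, also lay below that cut. The share of all coding genes with a peak at that cut is not given here, so these drops are not compared with it. Bridging gaps of up to 50 nt gave 12 stretches in Elavl1 and gaps of up to 200 nt gave 3, in place of 7. These last settings, ranking by covered bases and the use of gene strand were added after the data had been seen. Use of strand left out genes without a promoter entry. Reads per peak were not known, so counting error could not be given.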

Other observations

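Several genes of the lists had peaks only where gene spans overlap and were not counted. These were Tnpo2, a nuclear import receptor that binds HuR, Ccna2 and Hif1a among the HuR targets, and Cplx2 among the neuronal targets. Also within the neuronal list, 4 of the 8 peaks of Satb1 lay more than 5 kb from the 3′ end, up to 69149.5 nt away, whereas 0 of the 78 Elavl1 peaks did.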
